A study of Mus musculus with 3 samples.

Results

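Angptl4 and 7 further genes of the fasting-type lipid programme, Pdk4, Plin2, Plin4, Cpt1a, Acot1, Acot2 and Ucp2, were followed across the cell classes of the mouse brain after a transient ischemic attack (TIA). These 8 members, out of 32285 genes in the count tables, were chosen by name because of the 24 h rise of Angptl4 in pericytes in these same libraries. That contrast is therefore given here as a description and supports nothing. The question was whether the rise came with other genes of fasting and of fatty acid oxidation, and in which cell classes.

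Angptl4 is a secreted protein that inhibits lipoprotein lipase and so limits the uptake of fatty acids from circulating lipoproteins. During fasting, fatty acids activate the peroxisome proliferator-activated receptors (PPARs), nuclear receptors that pair with retinoid X receptors and switch on genes for lipid storage, fatty acid oxidation and the sparing of glucose. In the brain, fatty acid oxidation is ascribed mainly to astrocytes, while pericytes wrap the capillaries next to the endothelium. Several of these genes, Angptl4 and Pdk4 among them, are also known to respond to glucocorticoids, and Angptl4 to hypoxia.

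Single-cell RNA sequencing was done on brain cells of WT mice of the strain C57BL6J, aged 10 to 12 weeks by the study's general methods and male by its figure of these cell types, while the labels do not give the sex. TIA was a 5 min occlusion of the middle cerebral artery by a filament, and the hemisphere on that side was taken after 24 h or 3 d (labelled 24h post stroke and 3d post stroke). The control mice are labelled naive, and no sham-operated library was analysed here, so occlusion, surgery and anesthesia cannot be told apart. White matter and meninges were taken off, and living cells, freed with papain and negative for propidium iodide, were sorted. Each condition is 1 library of 3 pooled mice that cannot be told apart, the 24 h and 3 d comparisons share the naive library, and no test was possible.

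The tables held 4804 cells and 37987228 unique molecular identifiers (UMIs, the count of RNA molecules) in the naive library, 1619 cells and 12919691 UMIs at 24 h, and 5505 cells and 48636436 UMIs at 3 d. After cells with under 500 genes or over 7% mitochondrial UMIs were left out, 4018, 1225 and 4781 cells were kept, with medians of 7750, 8123 and 7868 UMIs per cell. Of the kept barcodes, 2 were shared by the naive and 24 h libraries, 7 by the naive and 3 d libraries, and 2 by the 24 h and 3 d libraries. Cells were clustered without the members, and clusters were named from marker genes, as "-like" classes. Comparisons were limited to 6 classes, those that held 50 or more cells in each library.

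Pericyte-like cells numbered 159 in the naive library, 182 at 24 h and 328 at 3 d, and expressed 10 of 10 pericyte markers, with Higd1b, Kcnj8 and Abcc9 among their leading genes. Their cluster also had 5 of 8 fibroblast markers past the limits used for naming, and smooth muscle markers are given below. Endothelial cell-like cells numbered 288, 229 and 591, astrocyte-like cells 791, 218 and 1276, and oligodendrocyte-like cells 232, 72 and 250. Microglia-like cells numbered 1027, 272 and 1261, and neuron-like cells 766, 109 and 363. The neuron-like class expressed 10 of 12 neuron markers and also 2 of 8 neuronal progenitor markers. Htr3a, Adarb2 and Prokr2 were among its leading genes, and the neuron marker Slc17a7 had 0 UMIs in it at 24 h. Which kinds of neurons this class holds was not tested, so its values are not given for brain neurons at large. A level is the UMIs of a gene summed over the cells of a class and scaled to 1000000 UMIs of that class (CPM, counts per 1000000). Intervals are 95% intervals that cover counting error only, not the spread between mice. A member was called higher or lower when both libraries together held at least 30 of its UMIs and the CPM differed at least 2-fold, a log2 ratio of 1 or more in size.

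At 24 h Angptl4 was higher in pericyte-like and endothelial cell-like cells, Ucp2 in endothelial cell-like and microglia-like cells, Plin2 in microglia-like cells, Plin4 in astrocyte-like and oligodendrocyte-like cells, and Pdk4 in oligodendrocyte-like cells. Acot1 was also called higher in neuron-like cells, from 26 UMIs in the naive library and 11 at 24 h. No compared class had more than 2 members higher at either time. Angptl4 was the 1 member called in the pericyte-like class, of the 4 that reached 30 UMIs there, while 2.59% of the 7713 genes with that many UMIs were called higher and 2.83% lower. As this is the contrast that chose the members, nothing is read from that count.

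In the other classes the count of members higher at 24 h was 2 of 4 in endothelial cell-like cells (2.44% of all genes tested higher, 3.75% lower) and 1 of 8 in astrocyte-like cells (3.01% higher, 6.43% lower). It was 2 of 5 in oligodendrocyte-like cells (3.67% higher, 6.81% lower) and 2 of 4 in microglia-like cells (2.44% higher, 3.7% lower). In neuron-like cells 1 of 5 members was higher and 2 were lower, where 0.985% of all genes were higher and 10.1% lower. Over the 48 pairs of a member and a class, 30 had enough UMIs, and 9 of these were higher, 2 lower and 19 within 2-fold.

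At 3 d, against the same naive library, Angptl4 was still higher in both vascular classes, and Plin4 and Pdk4 in the glial classes named above. Of the 4 members tested in pericyte-like cells 1 was higher (6.77% of all genes tested higher, 1.07% lower). Endothelial cell-like cells had 1 of 5 members higher (3.34% higher, 1.05% lower), astrocyte-like cells 1 of 8 (1.47% higher, 1.11% lower) and oligodendrocyte-like cells 2 of 6 (4.62% higher, 1.19% lower). Microglia-like cells had 0 of 5 (1.7% higher, 0.982% lower), and neuron-like cells had 1 of 5 lower (0.46% higher, 2.23% lower). In all, 5 of 33 pairs were higher, 1 was lower and 27 were within 2-fold. Whether any class differed from another in these counts was not tested.

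**Figure D1:**
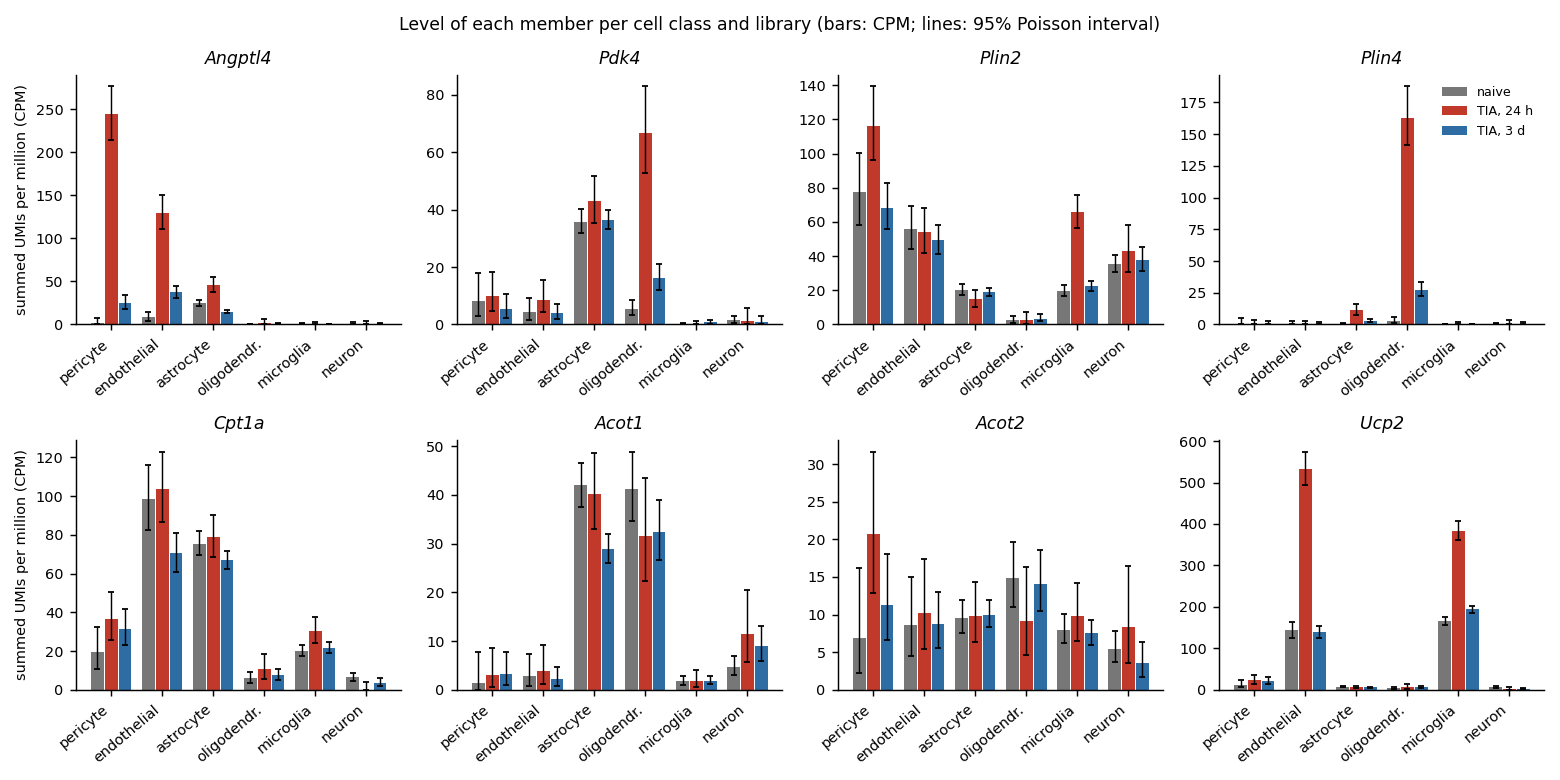
Level of each of the 8 members in CPM (bars, linear axes starting at 0) in 6 cell classes and 3 libraries, with 95% Poisson intervals as lines. The tallest bars at 24 h stand in pericyte-like cells for Angptl4 (244 CPM), in oligodendrocyte-like cells for Plin4 (163 CPM) and Pdk4 (66.6 CPM), and in endothelial cell-like cells for Ucp2 (533 CPM).

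Angptl4 (ENSMUSG00000002289, chr17:33773750-33781830 on the minus strand of GRCm38) is the secreted lipase inhibitor of the group. In pericyte-like cells it had 1 UMI in the naive library, 248 at 24 h and 38 at 3 d, levels of 1.38 CPM (0.03 to 7.70), 244 CPM (215 to 277) and 25.2 CPM (17.9 to 34.6). It was thus close to absent in the naive library, high at 24 h and between these at 3 d. The log2 ratio to naive was 7.47 (4.98 to 12.78) at 24 h, or 177-fold, and 4.19 (1.63 to 9.53) at 3 d. The width of both intervals comes from the single naive UMI. Among the 7713 genes tested in this class, the 24 h ratio ranked 1 from the top, and the 3 d ratio ranked 19 among 8911.

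The UMIs were spread over many pericyte-like cells. At 24 h 106 of 182 cells (58.2%) had at least 1 Angptl4 UMI, against 1 of 159 naive cells (0.629%) and 29 of 328 cells (8.84%) at 3 d, at median depths of 5275, 4294 and 3913.5 UMIs per cell. The 5 cells with the most held 36 of the 248 UMIs at 24 h (14.5%). After each cell was thinned to 2000 UMIs, which left out 4, 7 and 22 cells of the naive, 24 h and 3 d libraries as too shallow, the shares were 0%, 34.9% and 3.92%. In microglia-like cells, a class that should lack the gene, the shares at full depth were 0.292%, 0.735% and 0.397% at medians of 7862, 9428.5 and 7828 UMIs, and 0%, 0% and 0.24% after thinning.

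Endothelial cell-like cells had 12, 166 and 102 Angptl4 UMIs in the naive, 24 h and 3 d libraries, levels of 8.56 CPM (4.42 to 15.0), 129 CPM (111 to 151) and 37.2 CPM (30.4 to 45.2). The gene was low in the naive library, highest at 24 h and intermediate at 3 d, as in pericyte-like cells. The log2 ratio was 3.92 (3.08 to 4.90) at 24 h, which ranked 6 of 8743 genes, and 2.12 (1.25 to 3.12) at 3 d. Of these cells 3.82%, 31.0% and 12% had a UMI, or 2.21%, 12.2% and 5.95% after thinning. The 10 of 10 pericyte markers found in the endothelial cell-like class summed to 264, 250 and 146 CPM, with Rgs5 the most abundant and none at 0, against 30571, 29139 and 26731 CPM in the pericyte-like class. Other lists were lower in this class at 24 h. The 10 of 10 microglia markers gave 900, 367 and 1251 CPM, above naive at 3 d. For 10 of 10 oligodendrocyte markers the sums were 185, 57.7 and 175 CPM. The 10 of 10 astrocyte markers, led by Slc1a2, gave 412, 160 and 351 CPM, with Aqp4 and Aldh1l1 at 0 at 24 h, the 10 of 12 neuron markers found, led by Nrxn3, gave 287, 80.3 and 199 CPM, with Syt1, Rbfox3 and Slc17a7 at 0 at 24 h, and the hemoglobin gene Hbb-bs was at 254, 13.3 and 51.1 CPM. The part of RNA of other cell types in the endothelial cell-like levels was not tested.

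In astrocyte-like cells Angptl4 was already present in naive mice. Its UMIs numbered 205, 122 and 196 in the naive, 24 h and 3 d libraries, levels of 25.1 CPM (21.8 to 28.8), 45.9 CPM (38.1 to 54.8) and 15.1 CPM (13 to 17.3). The log2 ratios, 0.87 (0.53 to 1.20) at 24 h and -0.74 (-1.03 to -0.45) at 3 d, were within 2-fold, on opposite sides of 0. A cluster rich in Agt that had 10 of 10 astrocyte markers but stayed unnamed, since Clic6 of the choroid plexus list was among its leading genes, held 39 of the 282 naive Angptl4 UMIs (13.8%).

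In the remaining classes Angptl4 was near the floor of detection. Oligodendrocyte-like cells had 0, 2 and 2 UMIs, microglia-like cells 4, 2 and 5, and neuron-like cells 6, 0 and 1. With 0 of 232 naive oligodendrocyte-like cells holding a UMI, a share of up to 1.58% is allowed. In the naive library the order of the CPM was astrocyte-like, endothelial cell-like, pericyte-like, neuron-like, microglia-like and oligodendrocyte-like, and the astrocyte-like interval was the single one free of overlap with its neighbour. At 24 h pericyte-like cells stood first, then endothelial cell-like and astrocyte-like cells, with no overlap between these neighbours or with the next. At 3 d the endothelial cell-like and pericyte-like intervals overlapped, and the astrocyte-like one lay just below the pericyte-like one.

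The distribution of the molecules over the classes shifted accordingly. Of the 282 Angptl4 UMIs in all kept naive cells, astrocyte-like cells held 72.7% and pericyte-like cells 0.355%. Of 573 at 24 h, pericyte-like cells held 43.3%, endothelial cell-like cells 29.0% and astrocyte-like cells 21.3%, while these classes held 8.6%, 10.9% and 22.5% of all UMIs. Of 407 at 3 d, astrocyte-like cells again held the largest share of any compared class, 48.2%. Over whole libraries the level was 8.05, 48.5 and 8.80 CPM, a log2 ratio of 2.59 (2.38 to 2.80) at 24 h and 0.13 (-0.09 to 0.35) at 3 d. A whole-library level also moves with the mix of cells, and pericyte-like cells were 3.96% of kept naive cells, 14.9% at 24 h and 6.86% at 3 d.

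Mural cells form a range from capillary pericytes to contractile cells, so the pericyte-like class was also divided by the summed UMIs of Acta2, Tagln, Myh11 and Cnn1, a division chosen after the data were seen. Cells with no such UMI, 125, 112 and 238 in the naive, 24 h and 3 d libraries, had Angptl4 at 1.84, 230 and 20.0 CPM, and 56.3% of them had an Angptl4 UMI at 24 h. Cells with 1 to 4 such UMIs, 28, 62 and 80 in number, had 0, 254 and 39.1 CPM, with 59.7% of cells at 24 h. Cells with 5 or more, 6, 8 and 10 in number, had 0, 335 and 21.9 CPM, and the intervals of the 3 groups at 24 h overlapped. The level at 24 h was therefore high with and without contractile transcripts.

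Markers of several other cell types were summed in the pericyte-like class. The 8 of 8 smooth muscle markers, led by Myl9, gave 2483, 2580 and 1863 CPM in the naive, 24 h and 3 d libraries. The 11 of 11 endothelial markers, led by Emcn, gave 500, 642 and 579 CPM, and the 8 of 8 fibroblast markers, led by Col1a2, gave 502, 544 and 495 CPM. For 10 of 10 astrocyte markers, led by Atp1b2, the sums were 1425, 826 and 2489 CPM. At 24 h Cnn1, Cdh5, Lum, Col1a1, Aqp4 and Gjb6 of these lists were at 0. The astrocyte marker sum was thus lower at 24 h than in the naive library and higher at 3 d. Atp1b2 itself did not follow that sum, at 640, 658 and 481 CPM, so the other markers of the list made these differences. Hbb-bs moved far more, at 80.1, 33.5 and 4416 CPM, and was thus highest at 3 d. The 10 of 10 oligodendrocyte markers summed to 213, 51.2 and 155 CPM, lowest at 24 h. The 10 of 10 microglia markers summed to 456, 314 and 1192 CPM, highest at 3 d. The part of any of these in the members' values was not tested.

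Plin2 coats lipid droplets in most cell types and is stabilised by stored lipid (ENSMUSG00000028494, chr4:86648386-86670060, minus strand). In pericyte-like cells it had 56, 118 and 103 UMIs, levels of 77.4 CPM (58.4 to 100.5), 116 CPM (96.2 to 139) and 68.4 CPM (55.8 to 82.9). The 24 h level was the highest of the 3 libraries, with a log2 ratio of 0.59 (0.12 to 1.07), and the 3 d ratio was -0.18 (-0.66 to 0.32). In microglia-like cells Plin2 had 171, 187 and 250 UMIs, or 19.7 CPM (16.8 to 22.8), 65.7 CPM (56.7 to 75.9) and 22.4 CPM (19.7 to 25.3). It rose there at 24 h by a log2 ratio of 1.74 (1.43 to 2.05) and was at 0.19 (-0.10 to 0.47) at 3 d.

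This rise in microglia-like cells rested in part on few cells and on 1 of the 2 clusters joined in the class. At 24 h 5 cells held 63 of the 187 Plin2 UMIs (33.7%), against 8.19% in the naive library. With the 5 cells of most Plin2 UMIs left out of each library, the log2 ratio was 1.27. These 5 cells are a larger part of the 272 cells at 24 h than of the 1027 naive cells, so both differences are in part built in. The share of microglia-like cells with a UMI was 13.7%, 27.2% and 15.9%, or 3.85%, 9.33% and 4.0% after thinning.

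The smaller cluster, with Cxcl10, Ccl12, Tnf and Lpl among its leading genes, held 11.7% of the microglia-like cells in the naive library, 24.3% at 24 h and 23.3% at 3 d. Divided by cluster after the data were seen, Plin2 had a 24 h log2 ratio of 2.52 (1.94 to 3.15) in the smaller cluster, with 29, 137 and 86 UMIs, and 0.44 (-0.05 to 0.92) in the larger, with 142, 50 and 164. The 24 h ratio of Plin2 was thus past 2-fold in the smaller cluster alone. Lpl, the lipase that Angptl4 inhibits, was looked at after its values were seen and had 36, 544 and 169 UMIs in the smaller cluster and 71, 12 and 102 in the larger. Its 24 h log2 ratio was 4.20 (3.71 to 4.73) in the smaller cluster, from 34.2 to 629 CPM, and -0.62 (-1.63 to 0.28) in the larger, but Lpl is itself among the genes that set the smaller cluster apart.

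Elsewhere Plin2 stayed within 2-fold. Endothelial cell-like cells had 55.6, 53.8 and 49.3 CPM, astrocyte-like cells 20.4, 14.7 and 19.0 CPM, and neuron-like cells 35.6, 42.7 and 37.6 CPM in the naive, 24 h and 3 d libraries. Oligodendrocyte-like cells had 8, 3 and 12 UMIs, too few for a call. In the naive library the level ran from high to low in the order pericyte-like, endothelial cell-like, neuron-like, astrocyte-like, microglia-like and oligodendrocyte-like, where the first and second intervals overlapped, as did those of astrocyte-like and microglia-like cells.

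Plin4, a perilipin best known from adipocytes and muscle (ENSMUSG00000002831, chr17:56100591-56109803, minus strand), was not detected where Angptl4 was highest. Pericyte-like cells had 0 UMIs in each of the 3 libraries, which allows levels of up to 5.10, 3.63 and 2.45 CPM and a share of cells with a UMI of up to 2.29%, 2.01% and 1.12%, and endothelial cell-like cells had 0, 0 and 1. Oligodendrocyte-like cells had 10, 196 and 96 UMIs, levels of 3.04 CPM (1.46 to 5.59), 163 CPM (141 to 188) and 27.6 CPM (22.3 to 33.7). The gene was low in naive oligodendrocyte-like cells, high at 24 h and still above naive at 3 d. Its log2 ratio was 5.75 (4.84 to 6.83), or 53.7-fold, at 24 h and 3.18 (2.24 to 4.29) at 3 d. The 24 h ratio ranked 2 of 9297 genes tested in the class.

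Of the 72 oligodendrocyte-like cells at 24 h, 56 (77.8%) had a Plin4 UMI, against 4.31% of naive cells and 25.2% at 3 d, at medians of 16150.5, 13417 and 12901 UMIs per cell. Thinned to 2000 UMIs the shares were 0.866% in the naive library, 29.6% at 24 h and 6% at 3 d, with 1, 1 and 0 cells too shallow. In astrocyte-like cells Plin4 had 2, 30 and 39 UMIs, or 0.25 CPM (0.03 to 0.89), 11.3 CPM (7.61 to 16.1) and 3.00 CPM (2.13 to 4.10). These gave log2 ratios of 5.52 (3.55 to 8.63) at 24 h and 3.61 (1.66 to 6.71) at 3 d, each ranking 2 among all genes tested in that class. The 6 of 6 choroid plexus markers, led by Ttr, were at 183, 7.90 and 8.53 CPM in astrocyte-like cells, with Folr1, Kl, Clic6 and Prlr at 0 at 24 h, and Hbb-bs was at 544, 8.28 and 29.8 CPM. The 10 of 10 microglia markers summed to 867, 340 and 578 CPM there, and the part of all these in the members' values was not tested. Microglia-like cells had 1, 1 and 0 Plin4 UMIs and neuron-like cells 1, 0 and 2, so no ratio was formed.

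Other cell types' markers moved in the oligodendrocyte-like class as well. In the naive, 24 h and 3 d libraries the 11 of 11 endothelial markers, led by Flt1, summed to 79.9, 12.5 and 157 CPM, with Slco1a4 and Abcb1a at 0 at 24 h, and the 8 of 8 fibroblast markers, led by Dcn, had 47, 0 and 131 UMIs. The 10 of 10 astrocyte markers, led by Slc1a3, gave 481, 224 and 743 CPM, with Aqp4 at 0 at 24 h, and Hbb-bs was at 3667, 6.66 and 2586 CPM. The 11 of 12 neuron markers found, led by Nrxn3, gave 593, 284 and 261 CPM. For 10 of 10 pericyte markers, led by Vtn, the sums were 28.3, 9.16 and 121 CPM, with Rgs5, Abcc9, Pdgfrb, Cspg4 and Ndufa4l2 at 0 at 24 h. These sums were lower at 24 h than in the naive library, when Plin4 and Pdk4 were highest, and their part in the values was not tested.

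At 24 h the oligodendrocyte-like class held 85.2% of the 230 Plin4 UMIs in all kept cells and the astrocyte-like class 13%. The order at 24 h was oligodendrocyte-like before astrocyte-like cells, with separate intervals, and all other classes at no more than 1 UMI. Plin4 was the 1 member among the 2000 most variable genes and was taken out before clustering, like the other members.

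Pdk4 phosphorylates and so shuts off the pyruvate dehydrogenase complex, which spares glucose when fatty acids are burnt (ENSMUSG00000019577, chr6:5483351-5496309, minus strand). In oligodendrocyte-like cells it had 18, 80 and 56 UMIs, or 5.47 CPM (3.24 to 8.64), 66.6 CPM (52.8 to 82.9) and 16.1 CPM (12.1 to 20.9). It was low in the naive library, high at 24 h and intermediate at 3 d, with log2 ratios of 3.61 (2.86 to 4.43) and 1.56 (0.77 to 2.41). The share of cells with a UMI was 7.33%, 45.8% and 14.8%, or 0.866%, 12.7% and 3.60% after thinning, while at 24 h 0 of 272 microglia-like cells had one, which allows up to 1.35%.

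In pericyte-like cells no change of Pdk4 was detectable at this depth. They had 6, 10 and 8 Pdk4 UMIs, levels of 8.29, 9.85 and 5.31 CPM, which is under the 30 UMIs needed for a call, and the 24 h interval of the log2 ratio, -1.35 to 1.99, takes in both a fall and a rise of 2-fold. Endothelial cell-like cells likewise had 6, 11 and 11 UMIs. Astrocyte-like cells held most of the naive Pdk4 UMIs, 291 of 372 (78.2%), and had 35.7 CPM (31.7 to 40.04), 42.9 CPM (35.4 to 51.5) and 36.5 CPM (33.3 to 39.95), with log2 ratios of 0.26 and 0.03. Microglia-like cells had 1, 0 and 8 UMIs and neuron-like cells 8, 1 and 3. The highest class was thus astrocyte-like in the naive and 3 d libraries and oligodendrocyte-like at 24 h, in each case with an interval apart from the next class.

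Cpt1a passes long-chain fatty acids to carnitine at the outer mitochondrial membrane, the rate-limiting step of their oxidation (ENSMUSG00000024900, chr19:3322334-3385733, plus strand). Pericyte-like cells had 14, 37 and 47 UMIs, or 19.3 CPM (10.6 to 32.5), 36.5 CPM (25.7 to 50.3) and 31.2 CPM (22.9 to 41.5). Both TIA libraries were above naive, but the intervals overlapped and the log2 ratios, 0.91 (-0.01 to 1.92) and 0.69 (-0.20 to 1.67), were within 2-fold. Over the alternatives the 24 h ratio ran from 0.67 to 1.04 and was past 2-fold in 1 of 11. Naive levels were highest in endothelial cell-like cells at 98.4 CPM (82.7 to 116) and astrocyte-like cells at 75.6 CPM (69.7 to 81.8), with separate intervals. These classes had 104 and 79.0 CPM at 24 h and 70.5 and 66.9 CPM at 3 d, with ratios from -0.48 to 0.08.

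Microglia-like cells had Cpt1a at 20.1, 30.2 and 21.6 CPM, with a log2 ratio of 0.59 (0.20 to 0.97) at 24 h, and oligodendrocyte-like cells had 6.08, 10.8 and 7.47 CPM, with 24 h ratios of 0.83 and, without the 5 cells of most UMIs in each library, -1.13. The last value is lowered in part by construction, since 5 cells are a larger part of the 72 cells at 24 h than of the 232 naive cells. Neuron-like cells had 35, 0 and 11 UMIs. With 0 counted as 3 UMIs, the 24 h log2 ratio there was at most -1.03, and it was -0.85 (-1.98 to 0.16) at 3 d. The neuron-like class was smallest at 24 h, and 0 of its 109 cells allows up to 3.33% of cells with a UMI, against 3.66% (2.44 to 5.24) of naive cells. The 95% upper limit of the 24 h level, 3.85 CPM, was less than 2-fold below the naive 6.38 CPM. The value was past 2-fold in 6 of 10 alternatives and ran from -1.61 to 0.026, the last a bound with suspected doublets left out, so this call did not hold.

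Acot1 and Acot2 split acyl-CoA into free fatty acid and coenzyme A, Acot1 in the cytosol and Acot2 in mitochondria. They lie side by side on chromosome 12 (ENSMUSG00000072949, chr12:84009490-84018371, and ENSMUSG00000021226, chr12:83987861-83993873, both plus strand) and are similar in sequence. Of the 2223 words of 50 bases in the Acot1 transcript 527 (23.7%) also occurred in Acot2, but 0 of 451 in its last 500 bases, where a 3′ kit takes most reads. How the counting divided shared reads was not tested, so both genes are given as uncertain.

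In pericyte-like cells Acot2 had 5, 21 and 17 UMIs, levels of 6.91 CPM (2.24 to 16.1), 20.7 CPM (12.8 to 31.6) and 11.3 CPM (6.58 to 18.1). The 24 h level was the highest, with a log2 ratio of 1.58 (0.14 to 3.35), but the 2 libraries held too few UMIs for a call. Acot1 had 1, 3 and 5 UMIs in this class. In every other compared class with a call possible Acot2 was within 2-fold, with 24 h log2 ratios from -0.70 in oligodendrocyte-like to 0.61 in neuron-like cells and 3 d ratios from -0.63 to 0.06. Without the 5 cells of most UMIs in each library these 24 h ratios were -1.47 and -1.01. Both classes were smaller at 24 h than in the naive library, so leaving out 5 cells lowers such ratios in part by construction.

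Acot1 was highest in the 2 glial classes named next, whose naive intervals overlapped. Astrocyte-like cells had 41.9, 40.3 and 28.8 CPM, with log2 ratios of -0.06 (-0.39 to 0.26) at 24 h and -0.54 (-0.76 to -0.33) at 3 d, and oligodendrocyte-like cells had 41.3, 31.6 and 32.4 CPM, with ratios of -0.39 and -0.35. In neuron-like cells it had 26, 11 and 28 UMIs, or 4.74, 11.5 and 8.99 CPM, and was called higher at 24 h with a ratio of 1.27 (0.11 to 2.34). The 11 UMIs at 24 h all came from 5 cells, and the ratio was past 2-fold in 7 of 10 alternatives.

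Ucp2 is a carrier of the mitochondrial inner membrane, named for uncoupling, that is abundant in immune cells (ENSMUSG00000033685, chr7:100493337-100502020, plus strand). In endothelial cell-like cells it had 201, 683 and 379 UMIs, or 143 CPM (124 to 165), 533 CPM (494 to 574) and 138 CPM (125 to 153). It was high at 24 h alone, and the naive and 3 d intervals overlapped. The log2 ratio was 1.89 (1.66 to 2.13) at 24 h and -0.05 (-0.30 to 0.20) at 3 d. Of these cells 49.3%, 80.3% and 39.8% had a Ucp2 UMI, or 25.5%, 55.7% and 23.6% after thinning, with 17, 8 and 36 cells too shallow.

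Microglia-like cells had 1443, 1092 and 2172 Ucp2 UMIs, or 166 CPM (157 to 175), 384 CPM (361 to 407) and 194 CPM (186 to 203). The order was the same as for Angptl4 in the vascular classes, 24 h above 3 d above naive, with log2 ratios of 1.21 (1.10 to 1.33) and 0.23 (0.13 to 0.33). Shares of cells with a UMI were 68.8%, 90.8% and 74.7%, or 25.8%, 50% and 32.1% after thinning. The 12 of 12 neuron markers, led by Nrxn3, were at 96.0, 30.9 and 29.2 CPM in microglia-like cells, with Slc17a7 at 0 at 24 h, and Hbb-bs was at 652, 12 and 50.6 CPM. The 10 of 10 oligodendrocyte markers summed to 234, 113 and 176 CPM there, and the part of all these in the Plin2 and Ucp2 values was not tested. In the smaller cluster of the class the 24 h ratio of Ucp2 was 0.71 (0.48 to 0.94) and in the larger 1.25 (1.11 to 1.38). For a class with little of the gene, astrocyte-like cells had shares of 4.30%, 5.05% and 4.70% at medians of 9756, 11756 and 9594.5 UMIs per cell.

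Pericyte-like cells had few Ucp2 UMIs, 9, 24 and 32, or 12.4 CPM (5.69 to 23.6), 23.6 CPM (15.2 to 35.2) and 21.3 CPM (14.5 to 30.0). The log2 ratios of 0.93 (-0.23 to 2.22) and 0.77 (-0.33 to 2.03) were within 2-fold, but the 24 h ratio was 1.03 with suspected doublets left out. In neuron-like cells Ucp2 had 40, 2 and 7 UMIs, with ratios of -1.81 (-4.90 to 0.14) at 24 h and -1.70 (-3.10 to -0.52) at 3 d, called lower at both times. With suspected doublets left out neither call was made, for want of UMIs, and over the alternatives the ratio was past 2-fold in 9 of 10 at 24 h and 10 of 10 at 3 d. Astrocyte-like cells had 7.60, 6.40 and 6.15 CPM, with a 24 h ratio of -0.25 that ran from -1.16 to 1.98 over the alternatives, and oligodendrocyte-like cells 3.65, 6.66 and 6.32 CPM. In the naive library microglia-like and endothelial cell-like intervals overlapped at the top, whereas at 24 h endothelial cell-like cells stood above microglia-like cells with separate intervals.

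Markers of several other classes were also lower in neuron-like cells, where Cpt1a and Ucp2 were called lower. The 11 of 11 endothelial markers found there, led by Cldn5, summed to 109, 14.6 and 18.3 CPM in the naive, 24 h and 3 d libraries, log2 ratios of -2.90 and -2.57, with Cdh5, Kdr, Tek and Tie1 at 0 at 24 h. The 10 of 10 astrocyte markers, led by Slc1a2, summed to 1247, 311 and 952 CPM, ratios of -2.01 and -0.39, with Aqp4 at 0 at 24 h. For 10 of 10 microglia markers the sums were 699, 167 and 593 CPM, ratios of -2.07 and -0.24. For 10 of 10 oligodendrocyte markers they were 181, 79.2 and 121 CPM, ratios of -1.19 and -0.58. The 10 of 10 pericyte markers, led by Vtn, summed to 66.4, 11.5 and 30.5 CPM, with Abcc9, Pdgfrb, Higd1b, Notch3, Cspg4 and Ndufa4l2 at 0 at 24 h, and Hbb-bs was at 1532, 7.30 and 32.4 CPM. Cpt1a and Ucp2 were more abundant in naive endothelial cell-like and microglia-like than in naive neuron-like cells, and the part of these marker sums in the lower calls was not tested.

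**Figure D2:**
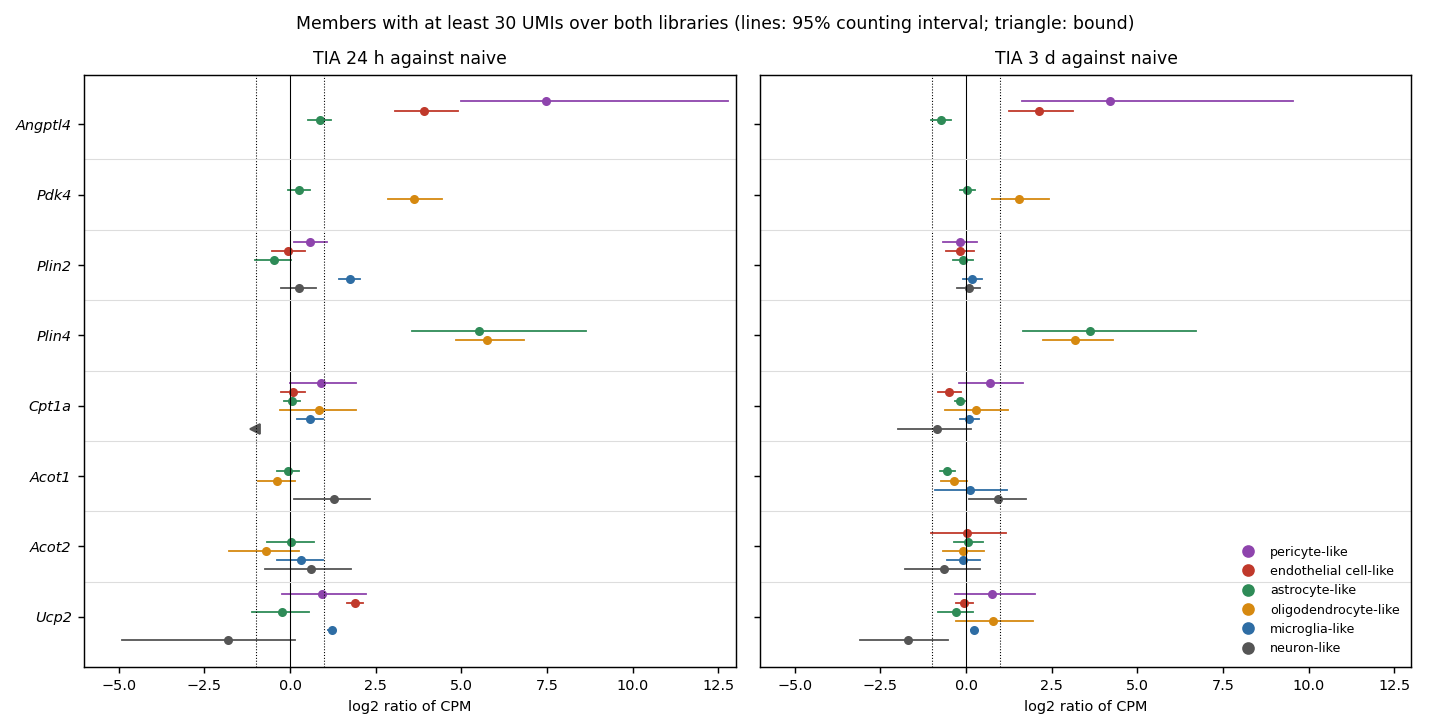
Log2 ratio of CPM to the naive library (points) with 95% counting intervals (lines) for each member with at least 30 UMIs, at 24 h on the left and 3 d on the right, colored by cell class, with dotted lines at 2-fold and a triangle for a bound. Angptl4 lies farthest right in pericyte-like cells (7.47 at 24 h, 4.19 at 3 d), and Plin4 lies beyond 3 in both oligodendrocyte-like and astrocyte-like cells at both times.

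Within the 24 h library, pericyte-like cells with an Angptl4 UMI (106 cells, median 5607 UMIs) were set beside those without (76 cells, median 4671 UMIs). Plin2 was found in 43.4% (33.8 to 53.4) and 36.8% (26.1 to 48.7) of them, Cpt1a in 17.9% and 15.8%, and Pdk4 in 4.72% and 6.58%. For Ucp2 the shares were 15.1% (8.88 to 23.4) and 5.26% (1.45 to 12.9), and for Acot2 13.2% (7.41 to 21.2) and 5.26% (1.45 to 12.9). All of these pairs of exact intervals overlapped, and the cells with Angptl4 were deeper. In oligodendrocyte-like cells Pdk4 was found in 48.2% (34.7 to 62.0) of the 56 cells with Plin4 and 37.5% (15.2 to 64.6) of the 16 without, again with overlapping intervals.

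The other genes of these pathways were described from 15 lists, in which 36 of 238 genes, members included, stand in more than 1 list. In pericyte-like cells the median log2 ratio of all genes tested was -0.00 at 24 h and 0.07 at 3 d. At 24 h 2.59% of them were higher and 2.83% lower. A total of 26 nuclear receptors and cofactors included 21 with at least 30 UMIs at 24 h, of which 1 was higher and 0 lower, at a median of 0.22. The 1 called was Klf15, a fasting and glucocorticoid-induced transcription factor, with 7, 25 and 36 UMIs and a ratio of 1.35 (0.10 to 2.80), while the most abundant, the corepressor Ncor1, was at -0.07.

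The receptors themselves were chosen to be named after their values were seen. Ppara had 22, 41 and 86 UMIs in pericyte-like cells, with log2 ratios of 0.41 at 24 h and 0.91 at 3 d. Ppard had 71, 112 and 187 UMIs, with ratios of 0.17 and 0.34, and Pparg had 0 UMIs in each library. The glucocorticoid receptor gene Nr3c1 had 148, 137 and 307 UMIs, with ratios of -0.60 (-0.95 to -0.25) and -0.00. Of the PPARs, Ppard had the most UMIs in this class, and none of these genes was past 2-fold.

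No tested PPAR target or oxidation enzyme other than the members passed 2-fold at 24 h in pericyte-like cells, where 2.59% of all genes tested were higher and 2.83% lower. Of 38 further PPAR target genes 13 had enough UMIs and 25 could not be tested, with 0 higher, 0 lower and a median log2 ratio of 0.25. The most abundant, the acyl-CoA synthetase Acsl1, had 235, 285 and 371 UMIs and a ratio of -0.21 (-0.46 to 0.05). Of 22 genes of mitochondrial fatty acid oxidation 18 were tested, with 0 called and a median of 0.17, and Etfb, an electron carrier subunit and the most abundant, was at 0.29. Peroxisomal oxidation (8 of 16 tested, most abundant Scp2 at 0.11) and ketone body metabolism (3 of 8 tested, most abundant Oxct1 at -0.54) had 0 called and medians of 0.03 and -0.38.

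Lipid droplet and lipolysis genes moved in both directions at 24 h. Of 20 genes 9 were tested, with 2 higher, 2 lower and a median log2 ratio of 0.10 (2.59% of all genes tested higher, 2.83% lower). Pnpla2, the first lipase of triglyceride breakdown, had 44, 156 and 110 UMIs and rose by 1.34 (0.85 to 1.86), and its coactivator Abhd5 had 9, 32 and 40 UMIs and rose by 1.34 (0.24 to 2.59). The cholesterol esterifying enzyme Soat1, with 41, 22 and 67 UMIs, was at -1.39 (-2.20 to -0.60), and the monoglyceride lipase Mgll, with 31, 19 and 134 UMIs, at -1.19 (-2.10 to -0.32). G0s2, an inhibitor of Pnpla2 and the most abundant gene of the list, was at -0.14. At 3 d 2 of 9 were higher and 0 lower (6.77% of all genes tested higher, 1.07% lower). These were Abhd5 at 1.09 and Mgll at 1.05, so Mgll was on opposite sides of the naive level at the 2 times.

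Fatty acid uptake, binding and activation had 6 of 22 genes tested at 24 h, with 0 higher and 1 lower at a median of -0.11 (2.59% of all genes tested higher, 2.83% lower). The 1 lower was Acsl3, an acyl-CoA synthetase of lipid droplets, at -1.10 (-1.63 to -0.58), and the most abundant was again Acsl1. Other acyl-CoA thioesterases (4 tested of 12 found among 13, most abundant Acot9 at 0.02) had a median of 0.11, and pyruvate dehydrogenase with its other kinases and phosphatases (11 of 13 tested, most abundant Mpc2 at -0.30) a median of -0.02, with 0 called in either. Other uncoupling proteins (2 of 5 tested, most abundant Slc25a27 at 0.81) had a median of 0.62 and 0 called. Of 7 other angiopoietin-like genes 6 were found and 1 was tested, Angptl2, at -0.83 (-1.26 to -0.41).

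In pericyte-like cells at 24 h 2.59% of all genes tested were higher and 2.83% lower. Among fasting genes linked to FoxO factors 11 of 18 were tested there, with 3 higher, 0 lower and a median log2 ratio of 0.43. These were Klf15, Txnip, which restrains glucose uptake, at 1.07 (0.68 to 1.47), and Ccng2 at 1.01 (0.03 to 2.10), and the most abundant, Cited2, was at 0.32. Of 15 genes of fatty acid synthesis, a pathway that fasting turns down, 8 were tested and 1 was higher, at a median of 0.13. That gene was Srebf1, a transcription factor of lipid synthesis, at 1.40 (0.36 to 2.57), and the most abundant was Scd2 at -0.26. Hypoxia-inducible genes had 16 of 22 tested, 1 higher and a median of 0.02, with Mxi1 at 1.25 (0.78 to 1.74) and the most abundant, Ndufa4l2, at 0.04.

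Genes that respond to glucocorticoids, a list that also holds Angptl4 and Pdk4, had 17 of 22 tested in pericyte-like cells at 24 h, with 8 higher, 2 lower and a median log2 ratio of 0.73. Without the members 7 of 16 were higher and 2 lower, at a median of 0.64 (2.59% of all genes tested higher, 2.83% lower). The 2 lower genes were not among the 4 of largest size, which alone are named beside the most abundant gene. Zbtb16, a transcription factor, had 4, 155 and 121 UMIs and a ratio of 4.79 (3.40 to 6.68) at 24 h and 3.86 at 3 d. Fkbp5, a co-chaperone of the glucocorticoid receptor, had 3, 32 and 62 UMIs and ratios of 2.93 (1.25 to 5.28) and 3.31. Ddit4, an inhibitor of mTORC1, had 14, 123 and 85 UMIs and ratios of 2.65 (1.85 to 3.56) and 1.54. Klf9, the most abundant, was at 0.55 (0.34 to 0.77).

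**Figure D3:**
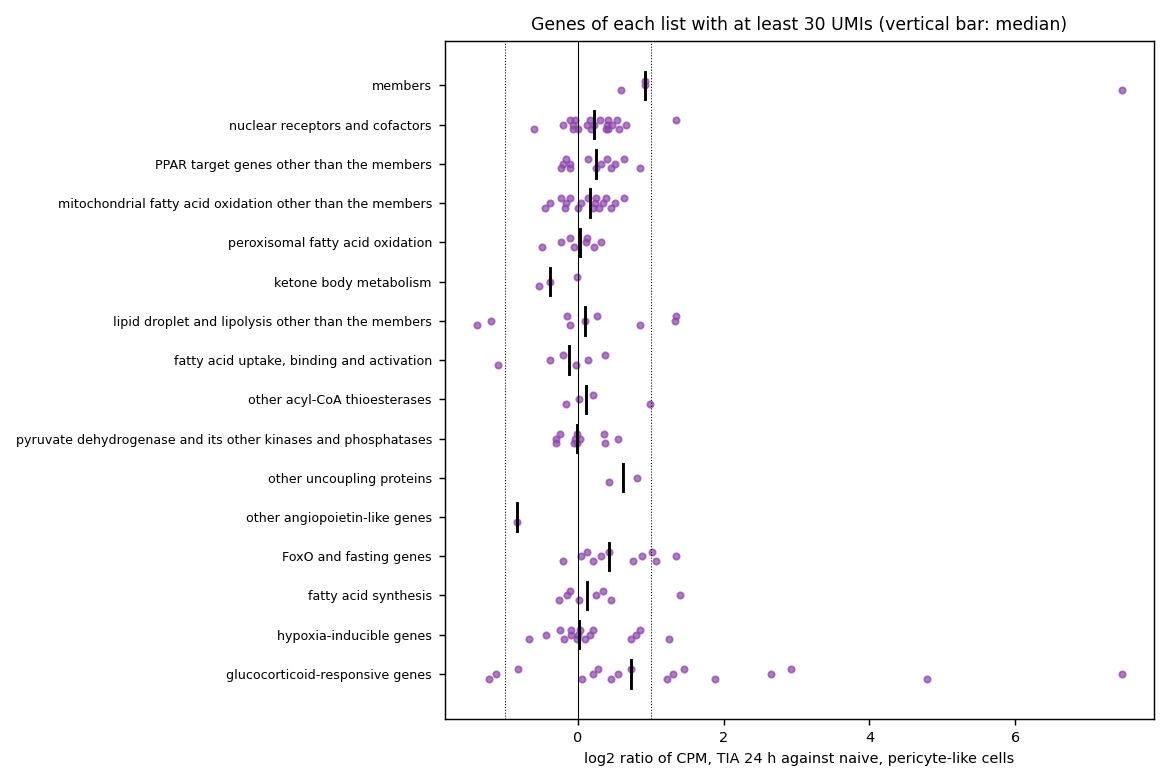
Log2 ratio of CPM at 24 h against the naive library in pericyte-like cells, with a point for each gene of a list with at least 30 UMIs, a thick bar at the list's median and dotted lines at 2-fold. Points of the oxidation lists lie between the dotted lines, with medians of 0.17 and 0.03, while the glucocorticoid-responsive list reaches from below -1 to Angptl4 at 7.47.

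At 3 d in pericyte-like cells, where 6.77% of all genes tested were higher and 1.07% lower, mitochondrial and peroxisomal oxidation again had 0 called, of 18 and 11 tested, with medians of -0.18 and 0.13. PPAR targets had 1 of 14 higher at a median of -0.05, fatty acid synthesis 3 of 10 higher at a median of 0.74, and glucocorticoid-responsive genes other than the members 8 of 18 higher at a median of 0.86. FoxO-linked genes had 1 of 13 higher at a median of 0.39 and hypoxia-inducible genes 1 of 19 at a median of 0.26. None of these lists had a gene called lower.

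In the other classes the same lists were read at 24 h for the question of where oxidation genes changed. Of all genes tested, 2.44% were higher and 3.75% lower in endothelial cell-like cells, and 3.01% and 6.43% in astrocyte-like cells. The shares were 3.67% and 6.81% in oligodendrocyte-like, 2.44% and 3.7% in microglia-like, and 0.985% and 10.1% in neuron-like cells. Mitochondrial oxidation had 0 called of 20 tested in endothelial cell-like, 21 in astrocyte-like, 19 in oligodendrocyte-like and 20 in microglia-like cells, with medians of 0.29, 0.11, 0.01 and 0.15. In neuron-like cells 0 of 19 were higher and 1 lower, at a median of -0.19. Peroxisomal oxidation had 1 of 10 higher in endothelial cell-like, 0 of 14 in astrocyte-like, 1 of 10 in oligodendrocyte-like and 0 of 14 in microglia-like cells, with 0 lower and medians of 0.13, 0.33, -0.11 and 0.07, and in neuron-like cells 0 of 13 were higher and 3 lower at a median of -0.23. PPAR targets had 1 of 16 higher and 1 lower in endothelial cell-like cells, 2 of 23 higher in astrocyte-like, 1 lower of 15 in oligodendrocyte-like and 1 of 19 higher in microglia-like cells. In neuron-like cells 0 of 17 were higher and 3 lower.

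Glucocorticoid-responsive genes other than the members had 17 of 19 higher in oligodendrocyte-like cells at 24 h (3.67% of all genes tested), at a median log2 ratio of 2.79, the class in which Plin4 and Pdk4 rose together. The counts were 9 of 19 in endothelial cell-like (2.44% of all genes), 11 of 20 in astrocyte-like (3.01%) and 7 of 19 in microglia-like cells (2.44%), with medians of 0.95, 1.14 and 0.67, and 1 gene was lower in microglia-like cells. Neuron-like cells had 0 higher and 8 lower of 16 (10.1% of all genes lower), at a median of -1.0. This list was part of the earlier results of these data, the part of any such pathway in the members' changes was not tested, and no difference between classes was tested.

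The genes whose levels ran most like Angptl4 were taken by Pearson's r of log2(CPM + 5) over the 18 pairs of a class and a library, among 8349 genes with at least 50 UMIs in pericyte-like cells. The 18 points share 3 libraries, so r is a description. Timp3, an inhibitor of metalloproteinases, came first with r = 0.815, and had 155, 957 and 654 UMIs in pericyte-like cells and a 24 h log2 ratio of 2.14 (1.89 to 2.39). Mtfr1 (r = 0.811), Ccdc141 (0.806), Etfb (0.799) and Nr1d1 (0.799) followed, with ratios of 0.71, 1.07, 0.29 and 0.57. High r here thus came with small as well as large differences at 24 h.

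RefSeq promoter sequences (GRCm38.p6) were at hand for the 7 members other than Angptl4, whose promoter was not searched, and the 250 bases before the start were searched on both strands for 5 motifs. The PPAR and RXR element, a direct repeat of AGGTCA with 1 base between the copies, occurred in 0 of the 7 and in 11 of 32851 promoters (0.0335%). A single AGGTCA, which the repeat contains, occurred in Plin2 and Cpt1a and in 14.0% of all promoters. The Cpt1a match, at -94 to -89 from the RefSeq start, lies inside the gene as annotated by GENCODE, and its sequence is not shown. The glucocorticoid receptor palindrome, GNACA and its reverse complement with 3 bases between them (0.387% of all promoters), the hypoxia core ACGTG (16.6%) and the FoxO core GTAAACA (3.17%) occurred in 0 of the 7. A match is a description of the letters, not a bound site. The promoters of Plin4 and Pdk4 are shown because these members rose together in oligodendrocyte-like cells, and that of Plin2 because it holds a match, in capitals at -218 to -213 as TGACCT, the reverse complement of AGGTCA. Bases inside the annotated gene were left out, and all 3 read 5′ to 3′ on the minus strand.
Plin4, chr17:56109804-56110032, 229 bases: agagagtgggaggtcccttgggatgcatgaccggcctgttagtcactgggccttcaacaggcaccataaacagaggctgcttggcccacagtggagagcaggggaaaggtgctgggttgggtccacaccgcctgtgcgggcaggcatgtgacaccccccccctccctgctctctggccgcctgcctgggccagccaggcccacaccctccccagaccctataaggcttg
Pdk4, chr6:5496310-5496528, 219 bases: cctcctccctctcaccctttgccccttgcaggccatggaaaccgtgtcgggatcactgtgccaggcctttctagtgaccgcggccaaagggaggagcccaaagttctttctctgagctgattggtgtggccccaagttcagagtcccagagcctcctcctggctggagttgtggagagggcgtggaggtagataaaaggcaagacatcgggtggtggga
Plin2, chr4:86670061-86670309, 249 bases: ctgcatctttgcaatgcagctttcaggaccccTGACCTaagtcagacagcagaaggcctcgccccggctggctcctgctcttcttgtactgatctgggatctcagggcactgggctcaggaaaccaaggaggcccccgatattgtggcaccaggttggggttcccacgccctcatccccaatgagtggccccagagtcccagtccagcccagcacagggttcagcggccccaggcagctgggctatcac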

How the data were processed

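The authors deposited UMI count tables of 3 libraries, filtered to cells and aligned to mm10 by Cell Ranger (3.1.0 in the submitters' processing notes, 7.1.0 in the matrix headers), so these counts hold no correction between libraries. From there, Seurat 5.3.0 in R 4.3.3 normalized the kept cells, regressed UMI number and mitochondrial percent, and clustered them on 20 components of 2000 variable genes at resolution 0.5, with the members taken out. A cluster was named from at least 3 markers found in 10% of its cells and 2-fold above the rest. Scrublet in scanpy 1.11.5 marked 115, 7 and 146 suspected doublets (naive, 24 h, 3 d), which were kept and left out as an alternative. Sums, exact Poisson and Clopper-Pearson intervals and conditional binomial intervals of ratios were computed in Python 3.11.15 with numpy 2.4.6, scipy 1.17.1 and pandas 2.3.3, and figures with matplotlib 3.10.9, and the steps were tested on simulated data. A library at 0 was set to 3 UMIs, as a bound. Of each list, up to 4 called genes of largest size in pericyte-like cells at 24 h and the most abundant gene were named. Members and lists were chosen with earlier results of these data known. The sums of the microglia, oligodendrocyte and erythrocyte marker lists, which moved more than 2-fold in pericyte-like, neuron-like and other classes, are not reported here. Gene positions came from GENCODE and promoters from RefSeq. Alternatives covered cell filters, doublets, clustering, scaling, limits and left-out cells.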

Additional observations from a re-analysis of the deposited data

Results flagged for a closer look

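Angptl4 had opposite signs against the naive library in classes with at least 30 UMIs. At 3 d its log2 ratio was 4.19 in pericyte-like and -0.74 in astrocyte-like cells, and within astrocyte-like cells it was 0.87 at 24 h. Acot1 at 3 d was at -0.54 in astrocyte-like and 0.92 in neuron-like cells, and Ucp2 at 3 d was at -1.70 in neuron-like and 0.23 in microglia-like cells. Each of these counting intervals lay on 1 side of 0, but with 1 library per condition the differences were not tested.

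Some clusters were not compared, as they had too few cells in a library or no name, yet members there passed 2-fold against the naive library. In the cluster with erythrocyte markers (97, 22 and 100 cells) the 24 h log2 ratio was 2.09 for Plin2, where 5 cells held 18 of the 20 UMIs and 1 cell 12, and 1.29 for Ucp2, where 5 cells held 25 of 30. In a cluster of high UMI number with microglia and macrophage markers (60, 22 and 106 cells) it was 1.21 for Plin2, where 5 cells held 28 of 32 UMIs, and 1.18 for Ucp2, where 5 cells held 97 of 173. In neuronal progenitor-like cells (197, 40 and 186) Cpt1a was at 1.00 at 24 h, where 5 cells held 9 of 11 UMIs, and Ucp2 at 1.77 at 3 d, where 5 cells held 66 of 97. In an unnamed cluster of low UMI number (289, 35 and 159 cells, 3 of 10 microglia markers) Ucp2 was at 2.54 at 24 h and 1.15 at 3 d. In the unnamed cluster rich in Agt (103, 22 and 149 cells) Acot1 was lower at 3 d, at -1.14.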

How the results depend on the processing

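Angptl4 in pericyte-like cells stayed past 2-fold in each of 11 alternatives, with log2 ratios from 5.66 to 8.55 at 24 h and 2.00 to 5.35 at 3 d, the low ends being lower bounds at 0 naive UMIs. Of 178 alternative values of the 17 called ratios, 168 were past 2-fold, 164 lay within the main counting interval and 2 lay across 0. Both are upper bounds in neuron-like cells with 0 UMIs at 24 h, -0.15 for Acot1 without the 5 cells of most UMIs, which held all it had, and 0.026 for Cpt1a with doublets left out, which shows no change of sign. Cpt1a there was past 2-fold in 6 of 10 alternatives and Acot1 in 7 of 10. Of 494 alternative values of the 46 ratios within 2-fold, 16 were past it, 3 of these for Ucp2 in astrocyte-like cells at 24 h (-1.16 to 1.98) and 3 for Ucp2 in pericyte-like cells at 24 h (0.68 to 1.42).

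With doublets left out, 2 members were higher in pericyte-like cells at 24 h (Ucp2 joined at 1.03), and the pairs of a member and a class that were lower went from 2 to 0 at 24 h and from 1 to 0 at 3 d. Ucp2 in neuron-like cells was still past 2-fold there, with too few UMIs for a call. Over all alternatives its log2 ratio ran from -1.98 to -0.81 at 24 h, past 2-fold in 9 of 10, and from -2.50 to -1.66 at 3 d, past it in 10 of 10, where -0.81 and -2.50 are upper bounds. Scaling by the median ratio of genes, and the mean CPM per cell, each left 1 lower pair at 24 h. At a minimum of 100 UMIs there were 0 lower pairs at either time, 0 members higher in pericyte-like cells at 3 d and 2 higher pairs at 3 d instead of 5. At 10 UMIs, 2 members were higher in pericyte-like cells at 24 h (Acot2 joined). At 1.5-fold 4 members were higher there at 24 h, where 9.53% of all genes tested were, with 16 higher pairs instead of 9. For 3 d, 3 members were higher at that limit, where 15.9% of all genes tested were, with 9 higher and 4 lower pairs. With cells of shared barcodes left out, an alternative chosen after seeing the data, 2 members were higher in pericyte-like cells at 24 h (Ucp2 at 1.09). In the larger and the smaller microglia cluster alone, also chosen after seeing the data, the 24 h ratio was 0.44 and 2.52 for Plin2 and 1.25 and 0.71 for Ucp2. Fewer UMIs, another limit, or 5 cells left out of libraries of unlike size act in part by construction, and the cause of the other shifts was not tested.

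Keeping only cells with at most 1 UMI of other classes' markers, or under 2 of smooth muscle and fibroblast markers, was not run, as under 50 pericyte-like cells were left. The single naive Angptl4 UMI limits its fold in pericyte-like cells, and the 72 oligodendrocyte-like and 109 neuron-like cells at 24 h limit those classes.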
